A study of Mus musculus with 9 samples.

Results

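Described here are the rows of the 7 complex I subunits that the mitochondrial genome encodes. Complex I is the NADH dehydrogenase that takes electrons from NADH and pumps protons across the inner mitochondrial membrane. The 7 rows were found by row order among the 40807 transcripts of the deposited table. The row of ENSRNOT00000041720, taken as the tRNA for phenylalanine, was counted as 1, and the members were rows 6 (ND1, ENSRNOT00000047550), 10 (ND2, ENSRNOT00000040993), 25 (ND3, ENSRNOT00000041241), 27 (ND4L, ENSRNOT00000044582), 28 (ND4, ENSRNOT00000042928), 32 (ND5, ENSRNOT00000048767) and 33 (ND6, ENSRNOT00000051268). The table holds no gene names, so each name rests on that order.

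Ovary poly(A) RNA was sequenced in 9 libraries, 3 in each of 3 groups that the labels describe as Balb/c mice. Blank served as the control. POF stands for premature ovarian failure, in which the ovaries stop working early, and was modelled in these mice. POF+BSHXF mice had the modelled failure and received the Chinese herbal formula Bushen Huoxue Fang. The sources used here do not give how the failure was induced, the animals' age, or the dose and duration of treatment. The comparisons ask what differs in the model and what differs in it when the formula is given. Although the labels say mouse, every ID in the table carries the prefix that Ensembl uses for rat transcripts. Which species the reads came from was not settled, and all values are conditional on that. Ovarian cell type markers and the nuclear genes of complex I carry no names in the table, so the tissue was not checked against markers, and the nuclear subunits were not analysed here.

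Complex I is built from subunits of both genomes, and its mitochondrially encoded subunits are hydrophobic proteins of the membrane arm. Both strands of the mitochondrial genome are copied as long precursors, from which the mRNAs are released, in most cases at the tRNAs that lie between them. The 6 members from ND1 to ND5 are read from the precursor of the heavy strand, and ND6 is the only mRNA of the light strand. ND4L and ND4 leave the precursor together as 1 mRNA with overlapping reading frames. They have separate rows, so counts out of 7 members below are counts of rows. The ND6 mRNA is known from human cells to lack the long poly(A) tail of the other mRNAs, and these libraries were made by selecting poly(A) RNA. In the ovary, mitochondria are most abundant in oocytes, and steroid-making cells also hold many.

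The counts at the member rows were of the size of mRNAs. Library totals were 41231313 to 58392086 estimated counts, and the 37 rows of the mitochondrial genome took 22.2% to 32.2% of them. The 7 members had 109662 to 1221052 counts per library. The highest count of any of the 22 tRNA rows in any library was 5653, so the lowest member count was 19.4-fold above it. All 13 rows that the order calls mRNAs lay above all 22 tRNA rows in mean count (146178 and more against 3494 and less). The 2 rRNA rows had 67498 to 141460 (12S) and 66530 to 212510 counts (16S), which overlapped the lower members. Count size thus set the members apart from tRNA rows and not from rRNA rows. Had the order been off by 1 row in either direction, 5 of the 7 members would have been tRNA rows.

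**Figure D1:**
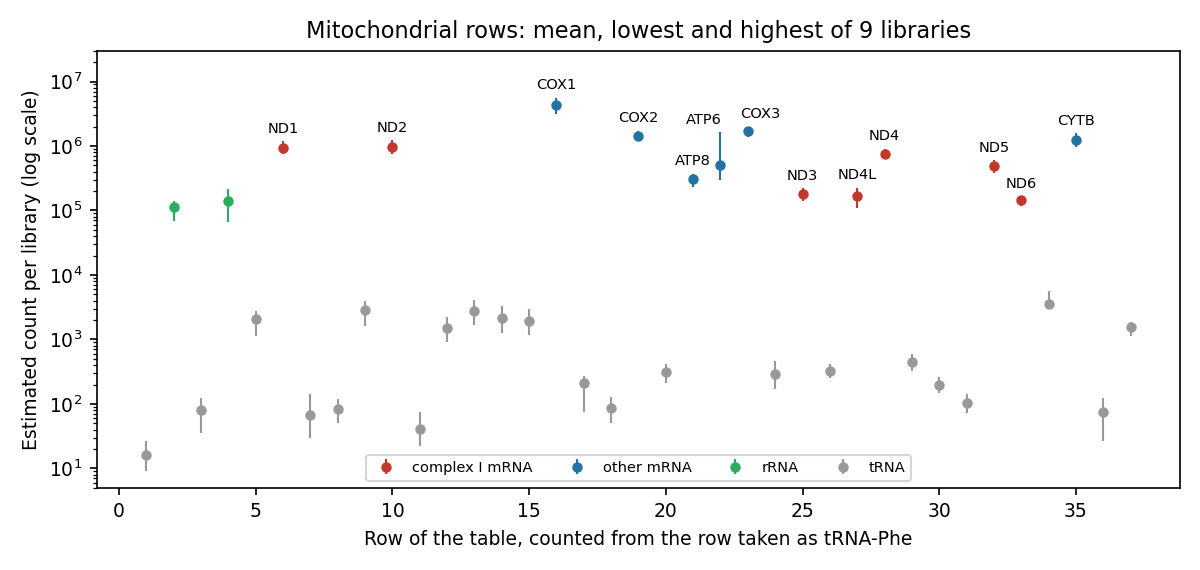
Estimated count per library (log axis) against row number for the 37 mitochondrial rows, coloured by the class that row order gives. Points are means of 9 libraries and bars run from the lowest to the highest library. The 7 complex I rows lie between 109662 and 1221052, and no tRNA row passes 5653.

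Compared per length, the members fell into 3 levels. Lengths were taken from the mouse genes as a stand-in, since no annotation of the IDs was used. On the scale of CPM per kilobase (CPM are counts relative to library size, here with TMM, a factor that aligns the bulk of transcripts between libraries), ND1 averaged 19789 over the 9 libraries and ND2 18508. ND4L (11339), ND4 (11107) and ND3 (10299) followed. ND6 (5692) and ND5 (5466) were lowest. Within libraries, ND1 was above ND2, ND2 above ND4L and ND3 above ND6 in 9 of 9. ND4L was above ND4 in 6 of 9, ND4 above ND3 in 8 of 9 and ND6 above ND5 in 4 of 9, so ND4L with ND4, and ND6 with ND5, did not keep an order. Per length, ND4 stood at 0.861 to 1.39 times ND4L, and the highest value was that of POF replicate 1. Where reads fall in their shared stretch, 7 bases in the mouse genes, the counting decides to which of the 2 rows they go. The ND5 and ND6 genes lie end to end on opposite strands and share 14 bases in mouse. The library kit marks strand, but the sources used here do not say whether the counting used it, so reads of ND6 and reads antisense to it cannot be told apart.

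In the failure model, the heavy-strand members stood lower in mean than in Blank, and the means of ND6 were close. Log2 fold changes ran from -0.53 (ND4L) to -0.30 (ND4) for ND1 to ND5, and that of ND6 was -0.02. The median over the 7 members was -0.37, beside 0.01 over all 20723 transcripts tested. None of the 7 passed the test, edgeR's quasi-likelihood F test with Benjamini-Hochberg adjustment over all transcripts at 0.05, which called 0.00965% of transcripts in this comparison. At an unadjusted p below 0.05, edgeR gave 2 of 7 members, ND3 and ND4L, both lower in POF, where 3.25% of all transcripts were so and lower, and 7.83% in either direction. DESeq2 also called 0 of 7 members (3.23% of transcripts), with ND4L nearest at an adjusted p of 0.0609, and limma-voom called 0 of 7 (0.00483%). At an unadjusted p below 0.05, DESeq2 gave 5 of 7 members and 12% of all transcripts, and limma-voom gave 3 of 7 and 5.85%. In bulk tissue, fewer mitochondria-rich cells and less of an mRNA per cell cannot be told apart.

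ND4L, a small membrane subunit, had the largest difference of the members. Its levels were 4452, 3623 and 3950 CPM in Blank replicates 1 to 3, 2207, 3453 and 2661 CPM in POF, and 3072, 3433 and 3458 CPM in POF+BSHXF. Every POF library lay below every Blank library. The log2 fold change of -0.53 ± 0.17 (SE), or 0.692-fold, had an unadjusted p of 0.0158 and an edgeR adjusted p of 0.623. ND4, its partner on the same mRNA and a proton-pumping subunit, overlapped between these groups. ND4 stood at 19219, 17286 and 15965 CPM in Blank, at 14223, 16040 and 12313 CPM in POF and at 12272, 14924 and 15507 CPM in POF+BSHXF. Its log2 fold change in POF was -0.30 ± 0.15 (edgeR adjusted p = 0.627). In POF replicate 1, ND4L was the lowest of all 9 libraries while ND4 was not.

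ND3, a subunit at the joint of the membrane arm and the peripheral arm, also had no overlap between POF and Blank. Levels were 4784, 3793 and 3858 CPM in Blank, 2926, 3310 and 2676 CPM in POF, and 2903, 4260 and 3749 CPM in POF+BSHXF. The log2 fold change in POF was -0.48 ± 0.17 (unadjusted p = 0.0244, edgeR adjusted p = 0.623). ND3 and ND4L were thus 2 of 7 members with all POF libraries below all Blank libraries, and 7.34% of all transcripts had that order. The order was not particular to complex I, as 3 of the 6 other mitochondrial mRNAs had it. It was also found in 5 of the 22 tRNA rows and 0 of the 2 rRNA rows.

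ND1, which lies by the quinone-binding site, and ND2, a proton-pumping subunit, had POF replicate 2 among the Blank values. ND1 stood at 24281, 19106 and 20799 CPM in Blank and at 14966, 19631 and 15652 CPM in the POF libraries, which gave a log2 fold change of -0.35 ± 0.18 (adjusted p = 0.628, edgeR). In POF+BSHXF it stood at 15821, 22400 and 17785 CPM. ND2 stood at 24374, 20052 and 21422 CPM in Blank and at 14985, 21055 and 14474 CPM in the POF libraries, which gave -0.38 ± 0.18 (adjusted p = 0.627, edgeR). Its levels in POF+BSHXF were 16540, 21386 and 18614 CPM. For both mRNAs, replicate 2 was the highest library of POF and of POF+BSHXF, and replicate 1 the highest of Blank.

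ND5, the most distal pumping subunit of the arm, also had POF replicate 2 within the Blank values. It stood at 12499, 9918 and 10115 CPM in Blank, at 7945, 10592 and 6717 CPM in POF and at 8702, 12518 and 10731 CPM in POF+BSHXF. The log2 fold change in POF was -0.37 ± 0.21 (edgeR adjusted p = 0.664). ND6, from the light strand, had levels of 3416, 2814 and 2738 CPM in Blank, 3289, 3450 and 2122 CPM in POF, and 2664, 3083 and 3009 CPM in POF+BSHXF. For ND6 the POF libraries held both the highest and the lowest value of all 9, and its mean of 2954 ± 725 CPM in POF lay beside 2990 ± 372 CPM in Blank (SD, n = 3). The log2 fold change of -0.02 ± 0.19 (edgeR adjusted p = 0.998) turned to 0.11 when libraries were scaled by their totals alone, a scaling that moved the median of all transcripts from 0.01 to 0.13.

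**Figure D2:**
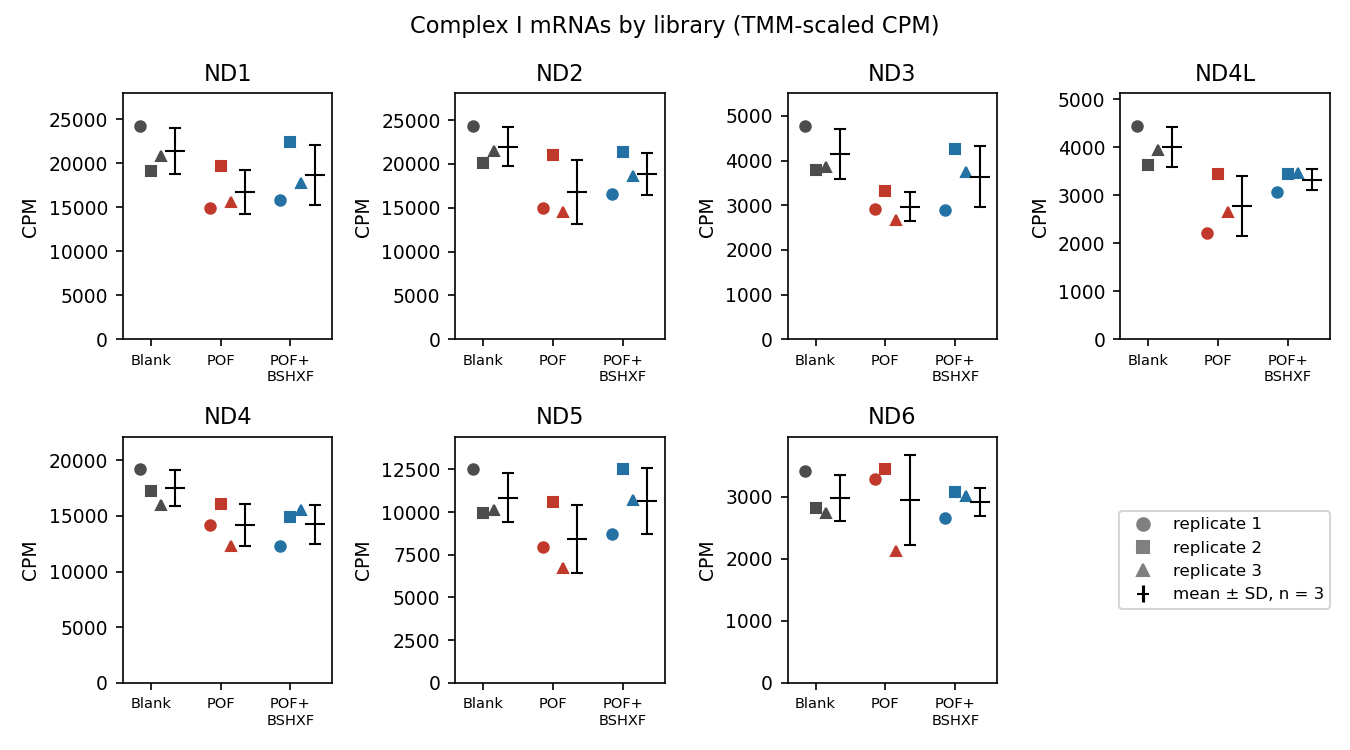
TMM-scaled CPM of each complex I member in each library, by group (symbols are replicates, with mean ± SD, n = 3, beside them; axes start at 0). ND3 and ND4L are the 2 members with every POF library below every Blank library, and replicate 2 is the highest POF library in all 7 panels.

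The size of the difference in the model rested in part on single libraries. Without POF replicate 2, the median log2 fold change of the members was -0.56, and 6 of 7 had an unadjusted edgeR p below 0.05, as 6.43% of all transcripts had in that fit. Without Blank replicate 1 it was -0.26, and 0 of 7 did, where 4.4% of transcripts did. No member passed the adjusted threshold in either case. The mitochondrial rows as a whole took 32.2% of counts in Blank replicate 1, the most of all 9 libraries, and 27.3% in POF replicate 2, the most within POF. The part of that share in these differences was not tested.

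Given the formula, the members stood on average between POF and Blank or near POF, and no member passed the test against either group. Against POF, log2 fold changes ran from -0.02 (ND6) to 0.34 (ND5), and 6 of 7 were above 0. The remaining 1 of 7 was below 0, where 49% of all transcripts were. The median was 0.16, beside 0.01 over all transcripts. EdgeR called 0 of 7 members (0.00965% of transcripts), and 0 of 7 had an unadjusted p below 0.05 (2.74% of transcripts). DESeq2 (0.58%) and limma-voom (0.00483%) also called 0 of 7. No member had all POF+BSHXF libraries above all POF libraries, as 3.42% of transcripts had. ND5 had the largest difference, 0.34 ± 0.21, from a mean of 8418 ± 1981 CPM in POF to one of 10650 ± 1909 CPM with the formula (SD, n = 3; adjusted p = 1, edgeR). ND3 followed at 0.29 ± 0.17, then ND4L at 0.26 ± 0.17, ND2 at 0.16 ± 0.18 and ND1 at 0.16 ± 0.18. ND4 differed by 0.00 ± 0.15, with means of 14192 ± 1864 CPM in POF and 14235 ± 1724 CPM with the formula, a difference within the spread. Left out in turn, the libraries of these groups moved the median from 0.04 (without POF+BSHXF replicate 2) to 0.36 (without POF replicate 2). Without POF replicate 2, 2 of 7 members had an unadjusted edgeR p below 0.05 (2.79% of transcripts in that fit), and none passed the adjusted threshold. Leaving out POF replicate 1 gave 0.09, and leaving out POF+BSHXF replicate 1 gave 0.26.

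Against Blank, all 7 members were lower in mean in POF+BSHXF, where 49% of all transcripts had a log2 fold change below 0. In POF against Blank that share was 48.7%, and all 7 members were below 0 there too. These comparisons share their Blank libraries, so the directions are not independent. The median of the members was -0.20, beside 0.01 over all transcripts. EdgeR called 0 of 7 (0.00965% of transcripts), with 0 of 7 at an unadjusted p below 0.05 (5.85%). DESeq2 (2.26%) and limma-voom (0.00965%) called 0 of 7, and DESeq2 gave 1 of 7 members an unadjusted p below 0.05, beside 9.87% of all transcripts. The members with all POF+BSHXF libraries below all Blank libraries were 2 of 7, ND4L and ND4, as 6.03% of all transcripts were. ND4L and ND4 are rows of 1 mRNA, so they are not 2 separate cases. Of the rows of the 6 other mitochondrial mRNAs, 2 (ATP6 and ATP8) had that order too. The reading frames of these 2 overlap, so they may not be separate cases either. ND4 differed by -0.30 ± 0.15 (edgeR adjusted p = 0.783) and ND4L by -0.27 ± 0.17 (0.843). ND2 differed by -0.22 ± 0.18, ND1 by -0.20 ± 0.18 and ND3 by -0.19 ± 0.17. ND5 (-0.03 ± 0.21) and ND6 (-0.03 ± 0.19) had means close to those of Blank, and these values became 0.04 and 0.03 when libraries were scaled by their totals alone. The members' median was -0.10 when Blank replicate 1 was left out, and -0.09 or -0.35 when the first or second POF+BSHXF library was.

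**Figure D3:**
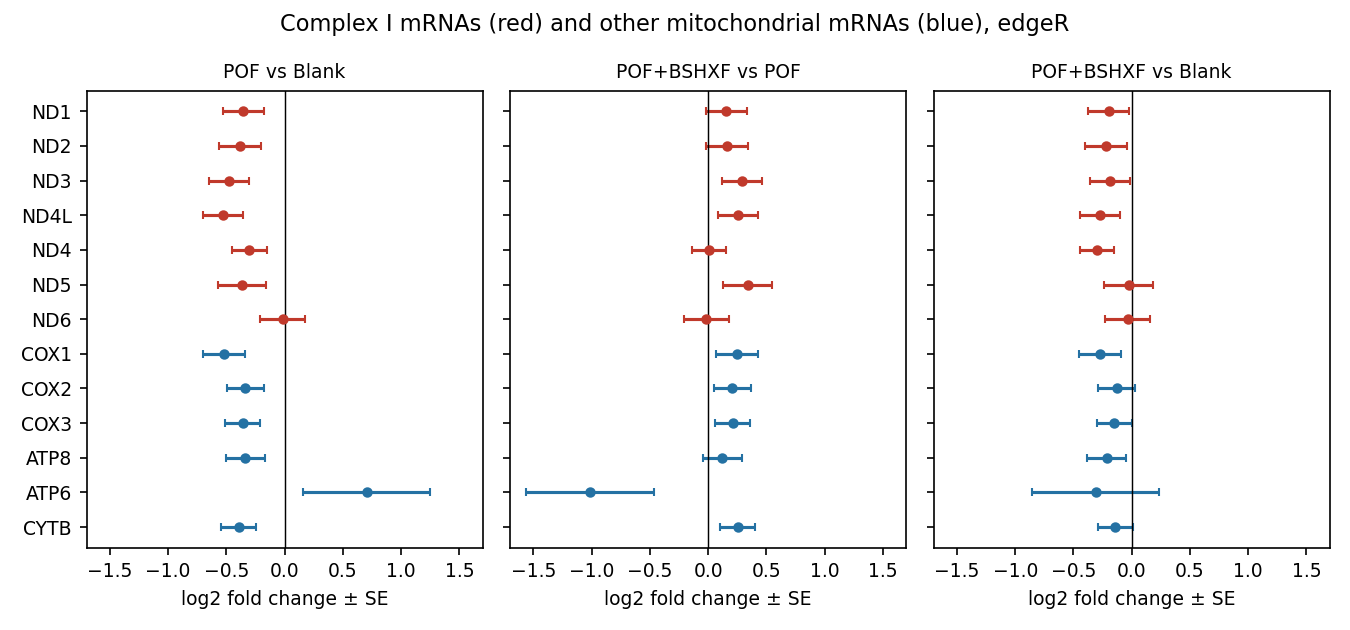
Log2 fold change ± SE (edgeR) of the 7 complex I members (red) and the rows of the 6 other mitochondrial mRNAs (blue) in the 3 comparisons. In POF against Blank the red points of ND1 to ND5 lie between -0.53 and -0.30 with ND6 at -0.02, and the wide bars of ATP6 come with its high value in POF replicate 3.

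Summed, the members took 8.33%, 7.71% and 7.70% of all counts in the Blank libraries. The POF libraries had 6.40%, 8.00% and 5.83%, and the POF+BSHXF libraries 6.49%, 8.10% and 7.05%. The groups overlapped in all 3 comparisons. The means were 7.91% ± 0.359 in Blank, 6.74% ± 1.13 in the model and 7.21% ± 0.817 with the formula (SD, n = 3). A two-sided exact permutation test over libraries gave p = 0.3 for either group against Blank, and 0.5 between the model with and without the formula. The smallest p that 3 against 3 allows is 0.1. With the 9 comparisons of shares and ratios adjusted together, these became 0.675 and 0.9.

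The other mRNAs of the same genome had fold changes within or near the range of the members, apart from ATP6. These are COX1, COX2 and COX3 of cytochrome c oxidase, ATP6 and ATP8 of ATP synthase and CYTB of the cytochrome bc1 complex. In POF against Blank, 5 of the 6 were lower in mean, with a median log2 fold change of -0.35 over the 6, beside -0.37 for the complex I members. COX1 differed by -0.52 ± 0.18 and CYTB by -0.39 ± 0.15, values within the range of the complex I members. COX1, COX3 and CYTB, 3 of the 6, had an unadjusted edgeR p below 0.05 and every POF library below every Blank library. Of all transcripts, 7.83% had such a p in either direction, and 7.34% had that order. ATP6 differed by 0.70 ± 0.55 in POF against Blank and by -1.01 ± 0.55 in POF+BSHXF against POF (edgeR adjusted p = 0.780 and 1). Within libraries, the log2 ratio of the summed members to the summed other mRNAs was -1.40 in every group, with an SD of 0.0716 in Blank, 0.241 for POF and 0.0952 for POF+BSHXF (n = 3). Each comparison had p = 1 (two-sided exact permutation test). The spread in POF came with ATP6, which had 1628374 counts in POF replicate 3 and 300087 to 486771 in the other 8 libraries. ATP8, whose reading frame overlaps that of ATP6, had 311981 counts in POF replicate 3 and 230648 to 370960 in the other 8. The fold changes of ATP6 thus rest on 1 library that ATP8 did not follow, and the cause was not tested. Without ATP6, a choice made after its value was seen, the ratio was -1.34 ± 0.0756 in Blank, -1.27 ± 0.131 in the model and -1.34 ± 0.0953 with the formula. By the exact permutation test, POF then gave p = 0.4 against Blank, and POF+BSHXF gave p = 0.5 against POF and 1 against Blank.

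ND6 and its heavy-strand neighbour ND5 were then compared within each library, a ratio that needs no scaling between libraries. The log2 ratio of ND6 to ND5 counts was -1.87, -1.82 and -1.89 in the Blank libraries and -1.27, -1.62 and -1.66 in those of POF. With the formula it was -1.71, -2.02 and -1.83. All 3 POF libraries lay above all 6 others. The mean in POF exceeded that in Blank by 0.34, a ratio of 1.27, and that in POF+BSHXF was lower than in POF by 0.34, a ratio of 0.792. Each had p = 0.1 in a two-sided exact permutation test, the smallest that 3 against 3 allows, and 0.45 after adjustment over the 9 comparisons, so neither passed. POF+BSHXF and Blank overlapped and differed by 0.00 (p = 1, exact permutation test). Without POF replicate 1, the difference of POF from Blank was 0.22 and that of POF+BSHXF from POF was -0.21. In POF, the mean of ND6 was near that of Blank (2954 ± 725 against 2990 ± 372 CPM, SD, n = 3), and the mean of ND5 was lower. Single POF libraries spread widely for ND6, and ND5 of POF replicate 2 lay within the Blank values. In POF+BSHXF, the mean of ND6 was near that in POF, and the mean of ND5 was higher.

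ND6 was also set against the sum of all 6 heavy-strand members. That log2 ratio was -4.74 ± 0.0485 in Blank, -4.41 ± 0.281 in the model and -4.56 ± 0.103 with the formula (SD, n = 3). POF and POF+BSHXF each lay above Blank without overlap (p = 0.1 for each, exact permutation test), and POF+BSHXF overlapped POF (p = 0.5). The difference between POF+BSHXF and POF was -0.15, against -0.34 with ND5 as the partner. The difference between POF+BSHXF and Blank was 0.18, against 0.00 with ND5. Without POF replicate 1, the difference of POF from Blank was 0.19 in place of 0.33, and that of POF+BSHXF from POF was -0.010. Against the other mitochondrial mRNAs without ATP6, POF overlapped Blank (difference 0.39, p = 0.2, exact permutation test) and POF+BSHXF did not (0.17, p = 0.1).

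**Figure D4:**
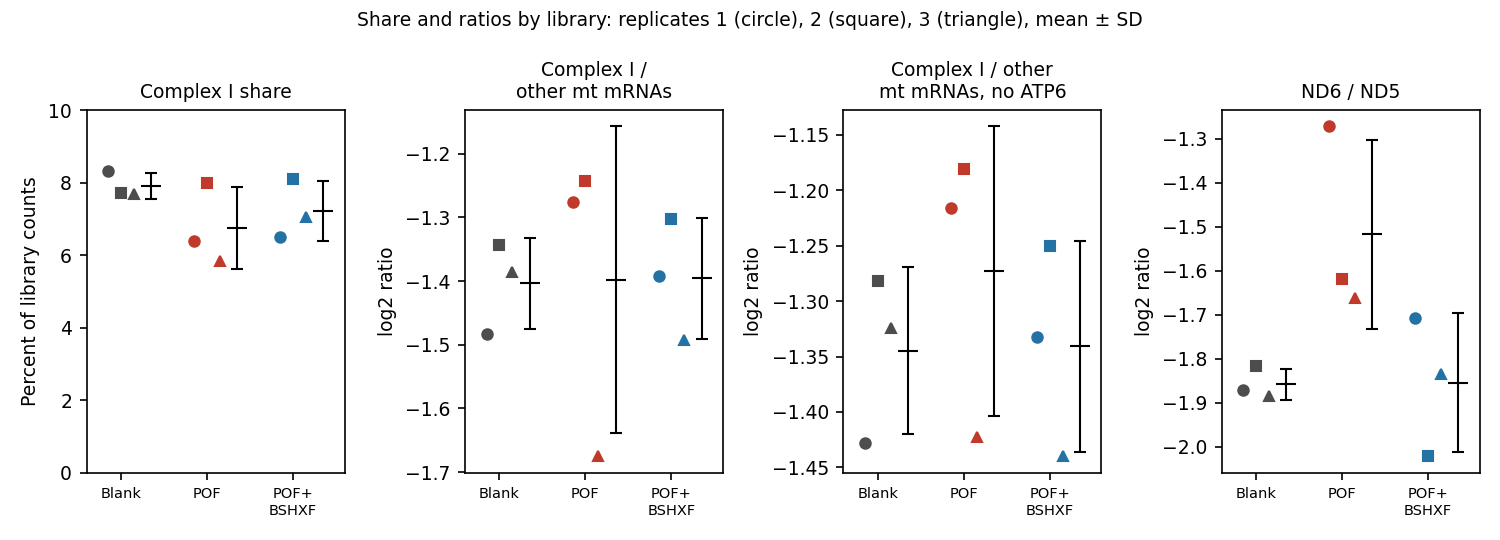
Complex I share of library counts in percent, log2 ratio of complex I to the other mitochondrial mRNAs with and without ATP6, and log2 ratio of ND6 to ND5, by library (symbols are replicates; bars are mean ± SD, n = 3). The ND6 to ND5 ratio is -1.66 or higher in the 3 POF libraries and -1.71 or lower in the other 6, while the groups overlap in the other panels.

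Within the members' own counts, the shares of ND1, ND2 and ND4 overlapped between groups, and those of ND3, ND4L, ND5 and ND6 did not in some comparisons. ND1 held 25.8% ± 0.760 of complex I counts in Blank, 25.9% ± 1.55 in the model and 25.8% ± 1.46 with the formula, and ND2 held 26.5% ± 0.565, 25.8% ± 1.22 and 26.1% ± 0.569. ND4 held 21.2% ± 1.24, 21.98% ± 1.42 and 19.8% ± 1.54. ND6 held 3.61% ± 0.116 in Blank, 4.54% ± 0.846 in the model and 4.06% ± 0.276 with the formula, with both failure groups above Blank without overlap. This share restates the ratio of ND6 to the summed heavy-strand members, so its lack of overlap is not a further result. The shares of a library add up to the whole, so a difference in 1 member moves the others. ND4L held 4.84% ± 0.148 in Blank and 4.27% ± 0.552 in POF, and ND3 held 5.00% ± 0.131 and 4.61% ± 0.299, both lower in POF without overlap. ND5 held 13.1% ± 0.322 in Blank, 12.9% ± 0.923 in the model and 14.7% ± 0.613 with the formula, and its POF+BSHXF libraries lay above all others (all SD, n = 3). Each difference without overlap had p = 0.1 in a two-sided exact permutation test. After adjustment over the 21 comparisons of 7 members, this became 0.35. The smallest p that 3 against 3 allows is 0.1, which lies above the threshold used for transcripts. No share could therefore pass, even without adjustment, and the test does not decide whether the shares differ.

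The heavy-strand members varied together across libraries more closely than any did with ND6. Over the 9 libraries, Pearson correlations of log2 CPM were 0.74 to 0.96 for the 15 pairs of heavy-strand members and 0.28 to 0.69 for the 6 pairs with ND6. These values describe libraries that share a scaling factor and the mitochondrial share of the counts. ND2 followed the mean of the other 6 members most closely (0.98) and ND6 least (0.56). Among 14770 transcripts outside the mitochondrial genome with a mean of at least 2 CPM, the pattern most like the mean of the 7 members was that of ENSRNOT00000024151 (Pearson r = 0.96, Spearman rho = 0.88 over 9 libraries). It stood at 9.60 to 12.1 CPM in Blank, 6.83 to 10.4 CPM in POF and 8.21 to 11.4 CPM in POF+BSHXF. ENSRNOT00000016009 came next (r = 0.94, rho = 0.92), at 71.7 to 123.3 CPM in Blank, 49.6 to 70.9 CPM in POF and 54.5 to 104.2 CPM in POF+BSHXF. Both had POF replicate 2 as the highest POF library, as the members had. Both were picked as the highest of all those correlations, which describe a search and no test.

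The tRNA of the light strand next to ND6, that of glutamate, stood at a mean of 67.2 CPM in Blank, 63.7 CPM in the model and 80.8 CPM with the formula, where replicate 2 alone had 116.2 CPM. Its log2 fold change was -0.08 ± 0.26 in POF against Blank, 0.34 ± 0.26 in POF+BSHXF against POF and 0.27 ± 0.26 in POF+BSHXF against Blank (edgeR adjusted p = 0.980, 1 and 0.958). Over the 8 light-strand tRNA rows the median log2 fold change in POF against Blank was 0.00, beside -0.50 over the 14 heavy-strand tRNA rows. The heavy-strand rows were also counted less, with a median of mean counts of 151 against 1734, so the 2 sets differ in level as well as strand. In POF+BSHXF the light-strand median was 0.42 against POF and 0.49 against Blank, where ND6 differed by -0.02 and -0.03. Of the 8 rows, 3 had an unadjusted edgeR p below 0.05 against POF (alanine, asparagine and cysteine), beside 2.74% of all transcripts. Against Blank, 4 did (these and tyrosine), beside 5.85% of all transcripts. These 4 rows follow one another in the row order, and the rest had an unadjusted edgeR p of 0.339 or more against Blank. The heavy-strand medians were 0.36 against POF and -0.11 against Blank. None of the 22 tRNA rows passed the adjusted edgeR threshold. Mature tRNAs lack a poly(A) tail, so counts at these rows can hold pieces of precursor RNA.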

How the data were processed

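Per the labels' protocols, poly(A) RNA was fragmented, copied with strand marking and sequenced in pairs. The authors deposited whole numbers per transcript, which were treated as estimated counts, not normalized, since low numbers gather at multiples of 4 (4591 values of 4, against 2349 of 3 and 1625 of 5, and 3054 of 8, against 1602 of 7 and 1270 of 9). A printed count may therefore not be 1 fragment, and fragments may be about 4-fold fewer, so a fit of counts divided by 4 was an alternative. The submitters' processing notes name HISAT2 2.0.4, cutadapt 1.9, StringTie, DESeq2 and edgeR without their roles. The sources used here do not give the build, annotation or counting step. Columns named Model matched the sample titles. Those named Blank were matched through the treatment label, as their samples are titled empty. Those named Treat were taken as POF+BSHXF, since the series design text calls the BSHXF mice the treated ones. Replicate numbers follow the titles.

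Members and gene lists were chosen with earlier results of these data known. All 9 libraries entered 1 edgeR 4.0.16 fit (R 4.3.3) with 3 group means, TMM and filterByExpr (minimum count 10, minimum total 15), which kept 20723 transcripts and all 7 members. P-values were adjusted by Benjamini-Hochberg over all of them. Standard errors are the log2 fold change over the square root of F. Shares and ratios were compared with two-sided exact permutation tests (scipy 1.17.1). DESeq2 1.42.0 and limma 3.58.1 were alternatives, beside other scalings, filters and left-out libraries. The edgeR script was tested on simulated data. All 7 members are named, and the transcripts most like them were ranked by Pearson correlation, with the first 2 printed.

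The labels do not say whether libraries of 1 group are separate animals. The p-values therefore speak of the spread of these libraries only, and that spread may be technical. Names of rows follow the order of mitochondrial genes in the mouse annotation, and lengths are those of the mouse genes. Gene lists that need symbols, and member sequences, were not used here.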

Additional observations from a re-analysis of the deposited data

How the results depend on the processing

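The counts of complex I members called stayed at 0 in every comparison under all 19 settings tried, and their median log2 fold change kept its sign. Over the settings other than left-out libraries, that median ran from -0.39 to -0.24 in POF against Blank. Members with a fold change near 0 changed sign. With libraries scaled by totals alone, ND6 in POF against Blank was 0.11, ND4 in POF+BSHXF against POF was -0.055, and ND5 and ND6 in POF+BSHXF against Blank were 0.038 and 0.031. That scaling put the median of all transcripts in POF against Blank at 0.13. In POF+BSHXF against POF, ND6 was 0.014 with limma-voom, and ND4 was -0.017 with only the groups compared in the fit. Same-numbered libraries were not paired by the labels, and 0 of 9 pairs had correlated deviations above 0.1. With the replicate number as a block, 0 members were called in each comparison, and ND6 in POF+BSHXF against POF was 0.010. The log2 ratio of complex I to other mitochondrial mRNAs differed by -0.094 in POF against Blank as a mean of log2 counts. In POF+BSHXF against POF it differed by -0.035 without rows with overlapping frames and by -0.068 without ATP6, an alternative chosen after seeing the data. The cause of these changes of sign was not tested.

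With each library left out in turn, some ranges crossed 0. In POF against Blank, ND6 ran from -0.14 to 0.17. In POF+BSHXF against POF, ND1 ran from -0.022 to 0.29, ND4 from -0.087 to 0.10 and ND6 from -0.21 to 0.11. In POF+BSHXF against Blank, ND5 ran from -0.19 to 0.10 and ND6 from -0.11 to 0.062. The ratio of complex I to other mRNAs ran from -0.072 to 0.14 in POF against Blank, from -0.14 to 0.080 in POF+BSHXF against POF, and from -0.039 to 0.057 in POF+BSHXF against Blank. The ND6 to ND5 ratio in POF+BSHXF against Blank ran from -0.070 to 0.087. The lowest count of a member was 109662, so counting error is small beside the spread between libraries, also were each fragment entered 4 times.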
